A study of Mus musculus with 6 samples.

Results

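Notch signalling genes were examined in the vomeronasal organ, the paired chemosensory organ of the mouse nose, in wild-type mice and in littermates lacking Cnpy1. The members are 10 genes of the 35450 with a deposited value: the receptors Notch1 and Notch2, the ligands Dll1, Dll4, Jag1 and Jag2, the DNA-binding factor Rbpj, and the target genes Hes1, Hes5 and Hey1. They were listed by pathway role, and Rbpj was chosen by its measured reads and TPM in this same contrast, which were lower in the knockout, so its values are given here as a description with no test. All 10 passed the filter on low counts.

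Poly(A) RNA was sequenced from 3 Cnpy1+/+ and 3 Cnpy1-/- mice at 60 days of age, each group with 2 males and 1 female. The organs of both sides of a mouse, taken out of their bone, gave 1 library, so each library stands for 1 animal and for every cell type of the organ. Cnpy1 encodes an endoplasmic reticulum protein of the Canopy family. How the knockout allele was made and the strain are not given in the sources used here.

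In Notch signalling, a ligand on one cell binds a receptor on its neighbour, and proteases then free the intracellular part of the receptor. This fragment enters the nucleus and joins the DNA-binding protein encoded by Rbpj, which holds target genes in check without it and helps to switch them on with it. In olfactory epithelia the pathway is known for its part in choosing between neuronal and supporting cell fates, and in the vessels that run through the tissue it guides endothelial sprouting.

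Library totals ranged from 60969508 to 71670766 estimated reads. Cnpy1 itself lay between 280 and 325 CPM in wild type and between 67.2 and 77.5 CPM in knockout mice. CPM are reads of a gene relative to all reads in genes of the library, scaled by the trimmed mean of M values (TMM). Genes that mark the organ's sensory neurons were abundant, with mean Omp at 773 TPM and Trpc2 at 152 TPM in wild type. TPM are relative abundances corrected for transcript length, and they are used wherever genes are compared with each other. Knockout 3 stood apart in some markers of other cells of the nose, named after their values had been seen. The main olfactory neuron genes Gnal and Adcy3 were at 19.3 and 42.0 CPM there, against 34.4 to 55.7 and 53.3 to 67.3 CPM in the other 5 libraries. The supporting cell markers Sec14l3 and Cyp2g1 were at 48.7 and 40.7 CPM, against 164 to 219 and 71.4 to 118 CPM. In the same list of 7, Sox2 and Hepacam2 were highest of the 6 libraries in knockout 3, at 174 and 3.84 CPM. The next highest were close, Sox2 at 173 CPM in knockout 1 and Hepacam2 at 3.77 CPM in wild type 3 and knockout 2. Cbr2 lay within the range of the others, at 1629 CPM. Of 16679 genes tested with edgeR's quasi-likelihood F test and Benjamini-Hochberg adjustment, 127 (0.761%) had an adjusted p under 0.05 and are described as called.

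Rbpj was read per transcript as well as per gene. The gene (ENSMUSG00000039191.12, chr5:53466152-53657362 in GRCm38, plus strand) has 12 annotated transcripts, and 4 of them held nearly all its reads. Rbpj-201, Rbpj-202, Rbpj-203 and Rbpj-207 each have 11 exons, share exons 2 to 10 and differ in the first exon. That of Rbpj-202 is the farthest upstream of these 4, at 53555834 to 53555903, while the first exon of Rbpj-203 lies at 53590471 to 53590724 and that of Rbpj-201 at 53590214 to 53590486. The first exon of Rbpj-207 lies at 53590981 to 53591980. The start of the coding sequence of the 3 transcripts that begin it in exon 1 is shown to let the reader see how the encoded N termini part ways, with the coding bases of exon 1 in capitals and exon 2 in lower case.
Rbpj-202: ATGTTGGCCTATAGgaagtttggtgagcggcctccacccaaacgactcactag
Rbpj-203: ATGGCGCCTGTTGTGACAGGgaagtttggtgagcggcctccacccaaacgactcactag
Rbpj-201: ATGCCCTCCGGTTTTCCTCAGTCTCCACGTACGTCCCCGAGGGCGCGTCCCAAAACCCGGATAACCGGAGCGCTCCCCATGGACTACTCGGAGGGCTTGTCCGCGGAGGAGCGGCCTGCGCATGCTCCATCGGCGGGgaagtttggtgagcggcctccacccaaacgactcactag
Exon 1 supplies 14 coding bases in Rbpj-202, 20 in Rbpj-203 and 137 in Rbpj-201, and the next 39 bases are identical in all 3. In Rbpj-207 the annotated coding sequence starts only in exon 3. The annotated proteins have 485 codons for Rbpj-202, 487 for Rbpj-203, 526 for Rbpj-201 and 465 for Rbpj-207.

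**Figure D1:**
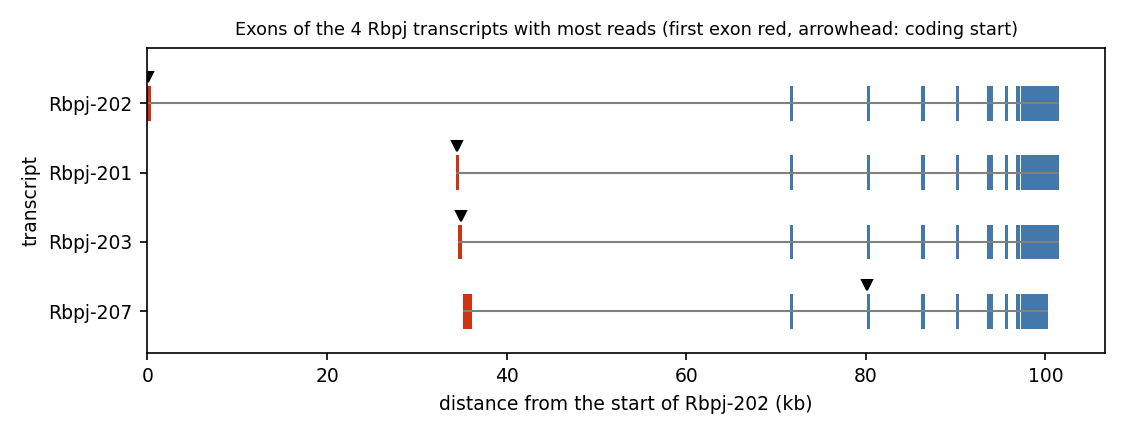
Exons of Rbpj-202, Rbpj-201, Rbpj-203 and Rbpj-207, drawn to scale along the gene as distance in kb from the start of Rbpj-202, except that exons under 0.35 kb are widened to be visible; first exons are red, the other exons blue, and arrowheads mark the coding start. The first exon of Rbpj-202 stands alone at the left, and exons 2 to 10 line up in all 4 transcripts, while exon 11 of Rbpj-207 ends earlier than the others.

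Rbpj also has a near-identical copy without introns, the processed pseudogene Rbpj-ps3 (ENSMUSG00000079575.3, chr6:46529354-46530794, minus strand). Its 1441 bases align without a gap to bases 71 to 1511 of Rbpj-202, which begin with exon 2, with 4 mismatches (99.7% identity). A stretch of 90 bases that holds 2 of these mismatches, in capitals, shows how little separates them. It covers bases 933 to 1022 of Rbpj-202 and bases 863 to 952 of the pseudogene.
Rbpj-202: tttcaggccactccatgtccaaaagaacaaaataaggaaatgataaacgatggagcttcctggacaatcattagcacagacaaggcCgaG
Rbpj-ps3: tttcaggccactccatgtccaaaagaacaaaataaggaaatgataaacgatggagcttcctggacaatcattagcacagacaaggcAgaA
Of the 31-base words of Rbpj-ps3, 93.2% also occur in Rbpj, and 88.4% of those of Rbpj occur in no other quantified gene. Most of the pseudogene's sequence is thus shared with Rbpj, and the deposited values divide shared reads by estimation.

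Summed over its transcripts, Rbpj held 4290, 4150 and 3495 estimated reads in the wild-type libraries 1, 2 and 3 and 1896, 1975 and 2050 in the knockout libraries 1, 2 and 3. These are 64.8, 66.7 and 46.9 CPM in wild type and 31.7, 33.8 and 30.5 CPM in knockout mice. Every knockout library lay below every wild-type library, and wild type 3 was the lowest of its group. Wild type averaged 59.5 ± 10.9 CPM and the knockout 32.0 ± 1.68 CPM (SD, n = 3 mice per genotype). The log2 fold change was -0.89, and it was -1.04 without wild type 3 and -0.86 without knockout 3. In bulk RNA, fewer cells of a type and less RNA per cell cannot be told apart. Groups that did not overlap in either direction were found for 16.2% of all genes tested, with every knockout below every wild type for 8.95%. Nothing is read from this for Rbpj, since it was chosen for its lower level.

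The estimated reads were divided differently among the transcripts in the 2 genotypes. Rbpj-202 (ENSMUST00000087360.8) held 1597, 1479 and 1519 estimated reads in the wild-type libraries and was listed at 0 in all 3 knockout libraries. It made up 38.8% ± 4.13 (SD, n = 3) of the Rbpj reads in wild type, at 24.1, 23.8 and 20.4 CPM. Because the reads of such similar transcripts are divided by estimation, a listed 0 is not a count of 0, and no fold change or upper limit is given. Among 43741 transcripts tested, 51 (0.117%) were listed at 0 in all knockout libraries with reads in all wild-type libraries. Nothing is read from this for Rbpj-202, since Rbpj was chosen by the same values. The reverse order was found for 32 transcripts.

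Rbpj-203 (ENSMUST00000113865.4), the other main transcript, overlapped between the genotypes. It held 37.6, 40.7 and 23.7 CPM in wild type and 29.5, 32.1 and 27.5 CPM in knockout mice, with wild type 3 below all the knockouts. Its share of the Rbpj reads was 56.5% ± 5.46 in wild type and 92.7% ± 2.44 in the knockout (SD, n = 3 each). The minor Rbpj-207 held 91, 86 and 77 reads in wild type and 20, 23 and 22 in the knockout, so its groups did not overlap. Nothing is read from this order either, since Rbpj was chosen by the same values. Rbpj-201 held between 46 and 134 reads in wild type and between 75 and 181 in the knockout, which overlap. With the reads of Rbpj-202 left out, the remaining Rbpj transcripts gave 40.7, 42.9 and 26.5 CPM in wild type and 31.7, 33.8 and 30.5 CPM in knockout mice. The groups then overlapped, at a log2 fold change of -0.20, but leaving out a transcript listed at 0 in every knockout can only lower wild type, so this is arithmetic and no support for where the difference lies. The words that tell Rbpj-202 apart are few: 27 of its 5222 words of 31 bases occur in no other quantified transcript, against 252 of 5410 for Rbpj-203.

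The pseudogene moved the other way. Rbpj-ps3 was listed at 0 in wild type 1 and 2, had 613 estimated reads in wild type 3, and had 942, 789 and 919 in the knockout libraries. On the CPM scale wild type 3 stood at 8.22 and the knockouts at 15.7, 13.5 and 13.7. The wild-type library with pseudogene reads was the one with the lowest Rbpj-203 level. Rbpj-ps1, the other annotated processed pseudogene of Rbpj, was listed at 0 in all 6 libraries.

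Adding the pseudogene to Rbpj narrowed the difference on 1 scale and turned it on the other. The summed reads gave 64.8, 66.7 and 55.2 CPM in wild type and 47.4, 47.3 and 44.2 CPM in knockout mice, which was 74.5% of wild type (log2 fold change -0.43). All knockouts were still below all wild types. In summed TPM, where a read in the 1441-base pseudogene weighs more than one in a transcript of Rbpj, wild type had 15.1, 17.7 and 21.6 and the knockout 23.3, 19.8 and 23.0. On that scale the groups overlapped and the log2 ratio of the means was 0.28. How much of the Rbpj difference comes from the division of reads between Rbpj and Rbpj-ps3 was not tested.

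**Figure D2:**
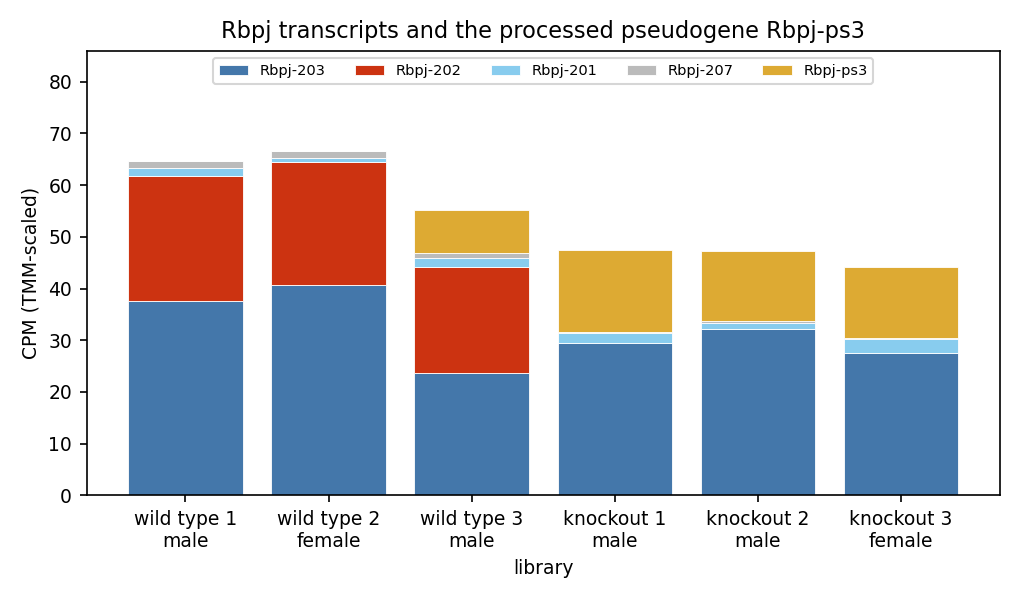
TMM-scaled CPM of the 4 main Rbpj transcripts and of Rbpj-ps3, stacked for each of the 6 libraries, with 1 bar per mouse. The Rbpj-202 segment is present in the 3 wild-type bars and absent from the 3 knockout bars, while the Rbpj-ps3 segment appears in wild type 3 and in all 3 knockouts.

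None of the other 9 members was called by edgeR's quasi-likelihood test, against 0.761% of all genes. At an unadjusted p under 0.05 there were 2 of 9, Notch1 and Jag1, against 10.5% of all genes, and limma-voom and the DESeq2 Wald test also called none of them. The log2 fold changes of the 9 ran from -0.03 to 0.40 with a median of 0.11, beside a median of 0.01 over all genes tested. All of the 31-base words of 8 of these genes occurred in no other quantified gene, and for Jag2 this held for 7099 of 7101.

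Of the receptors, Notch1, which encodes the widely expressed founding receptor of the family (ENSMUSG00000026923.15, chr2:26457903-26516663), stood at 36.8, 34.5 and 33.1 CPM in wild type and, in the knockout, at 49.6, 38.7 and 42.1 CPM. All knockouts were above all wild types in CPM, an order that 7.24% of all genes tested showed, while in TPM the groups overlapped because knockout 2 fell to 4.67. Its log2 fold change was 0.32 (SE 0.09, 95% interval 0.11 to 0.53) and did not pass the test (edgeR adjusted p = 0.241). Notch2, a receptor that acts in many epithelia and in vessels (ENSMUSG00000027878.11, chr3:98013527-98150361), had 56.7, 57.4 and 57.1 CPM in wild type and 61.7, 60.1 and 53.1 CPM in knockout mice. Its groups overlapped, with a log2 fold change of 0.03 (95% interval -0.12 to 0.18, edgeR adjusted p = 0.925).

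The Delta-like ligands overlapped between the genotypes. Dll1, used by differentiating neural cells to signal to their neighbours (ENSMUSG00000014773.13, chr17:15367354-15376872), had 11.0, 13.5 and 9.69 CPM in wild type and 11.1, 10.8 and 12.1 CPM in knockout mice. Its log2 fold change was -0.01 (95% interval -0.29 to 0.27, edgeR adjusted p = 0.992), and the sign turned under several settings. Dll4, the ligand of sprouting endothelium (ENSMUSG00000027314.6, chr2:119325784-119335962), had 4.35, 5.68 and 3.60 CPM in wild type and 5.45, 4.73 and 5.98 CPM in knockout mice. The female library was the highest of its group in each genotype for both genes. The log2 fold change of Dll4 moved from 0.10 without wild type 3 to 0.44 without wild type 2, and over all 6 libraries it was 0.25 (SE 0.18, 95% interval -0.16 to 0.65, edgeR adjusted p = 0.701).

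The Jagged ligands are the other class, distinguished by a cysteine-rich domain that the Delta-like ligands lack. Jag1, used in epithelial and vascular signalling (ENSMUSG00000027276.7, chr2:137081456-137116644), had 26.0, 23.2 and 23.3 CPM in wild type and 30.8, 27.3 and 25.2 CPM in knockout mice. Knockout 3 lay below wild type 1, and the log2 fold change of 0.20 did not pass the test (SE 0.09, edgeR adjusted p = 0.471) and was 0.12 without knockout 1. Jag2 (ENSMUSG00000002799.6, chr12:112907819-112929776) was the most abundant ligand in TPM, at 31.1 ± 2.61 in wild type and 30.5 ± 4.37 in the knockout (SD, n = 3 each). Its CPM were 84.3, 81.6 and 76.5 in wild type and 82.8, 78.2 and 75.6 in the knockout, which overlap. The log2 fold change was -0.03 (95% interval -0.17 to 0.10, edgeR adjusted p = 0.904).

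The target genes encode transcriptional repressors of the Hes and Hey families, which Notch signalling induces and which hold back neuronal differentiation genes. Hes1 (ENSMUSG00000022528.8, chr16:30064384-30067796) had 43.2, 45.4 and 50.7 CPM in wild type and 44.3, 44.6 and 49.2 CPM in knockout mice. The groups overlapped over most of their range, and the log2 fold change was -0.01 (95% interval -0.18 to 0.15, edgeR adjusted p = 0.977). Hey1 (ENSMUSG00000040289.8, chr3:8663359-8667256) had 79.1, 86.3 and 85.5 CPM in wild type and 103, 78.7 and 89.8 CPM in knockout mice. The knockouts held both the highest and the lowest Hey1 value of the 6 libraries, and the log2 fold change was 0.11 (95% interval -0.10 to 0.33, edgeR adjusted p = 0.758) and 0.01 without knockout 1.

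Hes5, the target most closely tied to neural progenitors (ENSMUSG00000048001.7, chr4:154960923-154962371), was scarce. Its main transcript held 31, 29 and 39 estimated reads in wild type and 35, 29 and 52 in the knockout, so its precision is limited by few reads. The log2 fold change of the gene was 0.40 (SE 0.27, 95% interval -0.23 to 1.02, edgeR adjusted p = 0.692). Without knockout 3 the log2 fold change was 0.15. In TPM, knockout 3 stood apart at 1.48, against 0.53 to 0.68 in the other libraries, and that library had 4 reads of a second, shorter transcript. Knockout 3 is also the library with low Gnal, Adcy3, Sec14l3 and Cyp2g1, though not with low Sox2, Hepacam2 or Cbr2. The part of this in its Hes5 level was not tested.

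Across the 9 genes, 43 transcripts were quantified, 31 had reads and 13 were tested. None of the 13 was called in the edgeR fit of all 43741 transcripts, of which 48 (0.11%) were, and 1 had an unadjusted p under 0.05. In each of the 9 genes a single transcript dominated, with 94.0% to 100% of the gene's reads over the 6 libraries. In Rbpj the leading transcript, Rbpj-203, held 68.7%.

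Compared per transcript length, the 10 genes spanned a wide range of levels. Hey1 was highest at a mean of 50.7 TPM over the 6 libraries, followed by Hes1 at 47.6 TPM and Jag2 at 30.8 TPM. Rbpj came next at 11.4 TPM, then Notch2 at 7.13 TPM, Jag1 at 6.32 TPM, Notch1 at 5.47 TPM and Dll1 at 4.69 TPM, with Dll4 at 1.79 TPM and Hes5 at 0.747 TPM last. The ranges over libraries did not overlap between Hes1 and Jag2, between Jag2 and Rbpj, or between Dll1 and Dll4. All other neighbours in this order overlapped. Rbpj at 15.1 ± 2.57 TPM in wild type was above every Notch2 library, and at 7.67 ± 0.323 TPM in the knockout (SD, n = 3 each) it had 2 of its 3 libraries within the Notch2 range of 6.54 to 7.60 TPM.

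**Figure D3:**
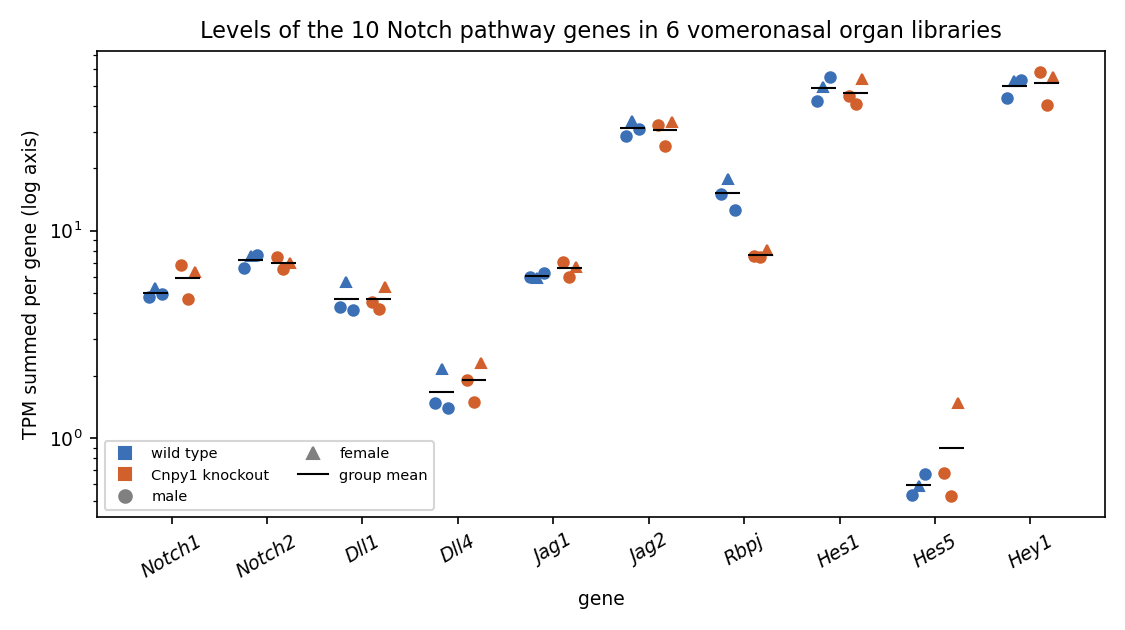
TPM per library of the 10 genes on a log axis, with wild type in blue and knockout in orange, males as circles and females as triangles, and group means as bars (3 mice each). The knockout points of Rbpj lie below its wild-type points, for which it was chosen, the points of the other 9 genes overlap between genotypes, and Hes5 shows a single high knockout point at 1.48 TPM.

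A wider list of 66 pathway genes, drawn up by role, was read in the same fit. Of these, 63 passed the filter and none was called by edgeR, in either direction, against 0.683% of all genes called lower and 0.0779% called higher. At an unadjusted p under 0.05 there were 8 (12.7%), 3 lower (Neurl1a, Aph1b and Dtx3) and 5 higher (Neurl1b, Lfng, Spen, Dtx2 and Hes6), against 10.5% of all genes, and limma-voom and the DESeq2 Wald test called none. The median log2 fold change of the list was 0.06, with a range of -0.21 to 0.76, and 43 of 63 values were above 0, against 8717 of 16679 genes. The 3 genes under the filter were Hes2 and Hes3, listed as targets, and the Rbpj paralog Rbpjl. Rbpjl had 0.0505 ± 0.0159 TPM in wild type and 0.0409 ± 0.00404 TPM in the knockout (SD, n = 3 each).

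The remaining receptors did not pass the test. Notch3, the receptor of vascular smooth muscle, had 8.61 ± 0.375 TPM in wild type and 8.13 ± 0.681 TPM in the knockout (SD, n = 3 each; log2 fold change -0.01). Notch4, an endothelial receptor, had 1.40 ± 0.263 and 1.58 ± 0.217 TPM (log2 fold change 0.12). Among the 5 other ligands and ligand-like genes, all log2 fold changes were above 0 and none passed, and the leading ones, the neuronal Dner at 0.04 and the endothelial Egfl7 at 0.07, overlapped between groups. Dll3 and Dlk1 of these 5 were scarce, with between 5 and 25 reads per library.

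Of the 4 ubiquitin ligases that prepare ligands for signalling, 2 had log2 fold changes above 0 and 2 below, with Mib1 at 0.04. Neurl1a had 73.5, 71.0 and 71.2 CPM in wild type and 66.7, 58.2 and 62.0 CPM in knockout mice. All its knockouts lay below all wild types, but the log2 fold change of -0.21 (SE 0.06) missed the threshold (edgeR adjusted p = 0.254). Neurl1b had the opposite order in CPM but overlapped in TPM, and it stood at 0.35 on the log2 scale (edgeR adjusted p = 0.375). The 5 glycosyltransferases, which modify the receptors, and the 10 proteases, which cut them, included no called gene, with 3 of 5 and 3 of 10 log2 fold changes above 0. Rfng stood at a log2 fold change of 0.03 and Poglut1 at -0.07, and the gamma-secretase subunits Psenen and Ncstn at -0.04 and -0.07.

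Genes whose proteins work with the Rbpj protein on DNA were then read. Of 8 coactivators none was called, 6 had log2 fold changes above 0 and the median was 0.07. The most abundant, Snw1 and the acetyltransferase Kat2b, were the 2 below 0, at -0.03 and -0.04. Of 15 corepressors none was called and 12 were above 0, with Ctbp1 at 0.03 and the deacetylase Hdac2 at 0.06. Among 9 inhibitors and turnover genes none was called and 7 were above 0. The most abundant, the Deltex genes Dtx1 and Dtx3, were the 2 below 0, both at -0.19. Their relative Dtx2 stood at 0.21 (edgeR adjusted p = 0.406), with all knockouts above all wild types in CPM but overlap in TPM. For Dtx3 all knockouts, at 29.6, 31.6 and 29.2 CPM, lay below all wild types, at 34.8, 33.7 and 34.5 CPM, with an edgeR adjusted p of 0.256. Of the 7 other genes listed as targets, Hes6 had 21.6, 21.3 and 20.6 CPM in wild type and 23.4, 23.5 and 24.1 CPM in knockout mice. Hes6 did not pass (log2 fold change 0.16, edgeR adjusted p = 0.352), and its groups overlapped in TPM. Nrarp, a feedback inhibitor, stood at 0.06. Whether the listed genes respond to Notch in this organ was not tested.

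**Figure D4:**
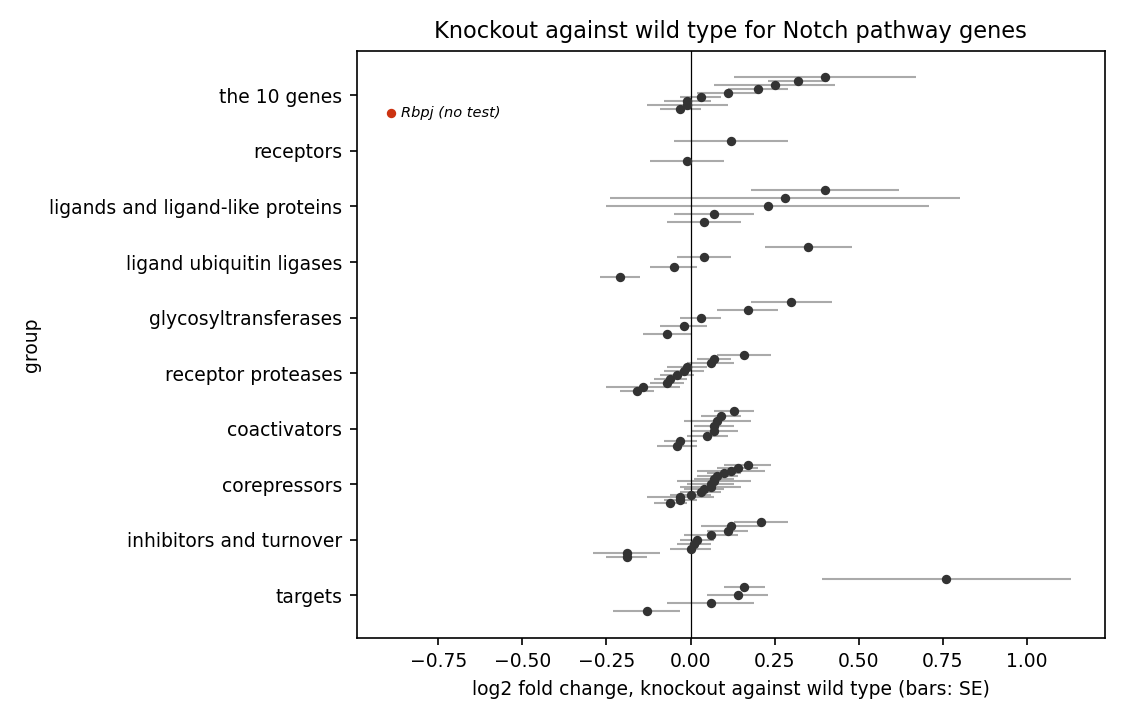
Log2 fold change of knockout against wild type for the 10 genes and for the 63 tested genes of the wider list, by role, with SE bars (3 mice each) and the zero line drawn. Rbpj at -0.89, shown without an error because it was chosen for its difference, is drawn for its value only, and the wider list runs from -0.21 to 0.76.

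Markers of cell types that express Notch genes were read beside these values. Of 8 basal sensory neuron markers, 3 (Gnao1, Vmn2r1 and H2-M10.3) were called lower, and the list summed to 1148 to 1209 CPM in wild type and 1003 to 1022 CPM in knockout mice. In the same list Meis2 lay higher in every knockout than in every wild type in CPM, though not in TPM, at a log2 fold change of 0.14. Nrp1 stood at 0.11, and neither of them was called. Vmn2r1 and H2-M10.3 belong to multigene families whose estimates can trade reads. Apical sensory neuron markers summed to 1036 to 1112 CPM in wild type and, higher, to 1131 to 1201 CPM in the knockout (0 of 6 called). Most of that sum and of its gain was Gnai2, with means of 644 and 726 CPM, while Pde4a and Robo1 had log2 fold changes of -0.07 and -0.15. Of 8 progenitor markers 1, the replication enzyme Top2a, was called higher, with sums of 208 to 239 and 242 to 262 CPM. No other list had a called gene, against 0.761% of all genes. Over all marker lists 4 genes were called, and 1 to 3 with 1 library left out. Mature neuron markers summed to 2241 to 2439 CPM in wild type and 2000 to 2133 CPM in knockout mice (0 of 7 called), supporting cell markers to 1959 to 2128 and 1905 to 2102 CPM (0 of 7), and endothelial markers to 196 to 245 and 213 to 255 CPM (0 of 8). Ciliated respiratory cell markers summed to 194 to 221 and 222 to 238 CPM (0 of 5). The summed ranges of the immature neuron, mural, immune, glial and main olfactory neuron markers overlapped between the genotypes. In summed TPM, the mature neuron markers alone kept their groups apart, and the ranges of the other marker lists overlapped. The most abundant mature neuron marker, Omp, had means of 773 TPM in wild type and 595 TPM in the knockout. In the same list of 7, Rtp1 and Ano1 were the 2 with log2 fold changes above 0, both at 0.05. No marker was at 0 in all libraries. The part of these markers in the level of Rbpj or of the other members was not tested.

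Rbpj lies on the chromosome of the targeted gene, 25.2 Mb from Cnpy1, and the genes between them were looked at after their values had been seen. Of 161 tested genes in that interval 2 were called (1.24%, against 0.761% of all genes), both lower. Ppp2r2c, a phosphatase subunit gene, had a log2 fold change of -0.32 and Lgi2 one of -0.46. Both were close to the threshold (edgeR adjusted p = 0.0449 and 0.0463). The nearest tested genes on the sides of Rbpj, Smim20 at -0.07 and Cckar at -0.21, were not called. Whether the position of Rbpj bears on its level was not tested.

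The genes whose log2 CPM followed Rbpj most closely over the 6 libraries, among those with a mean of at least 1 CPM, were Rnd2 (Pearson r 0.998), Eml1 (0.998), Rab3gap1 (0.996), Galnt18 (0.993) and Stbd1 (0.989). All 5 lay lower in each knockout than in each wild type, with wild type 3 lowest of its group, as for Rbpj. Their log2 fold changes were smaller, from -0.17 for Eml1 to -0.32 for Stbd1. The 6 points share the 2 genotypes and their libraries, so these values describe the pattern only. Of the other members, Jag2 had the highest r with Rbpj, at 0.51, and Notch1 the lowest, at -0.72, while Hes5 was under the level needed for this comparison.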

How the data were processed

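Per the file headers, the authors deposited for each library a table of estimated counts and TPM values for 117081 Ensembl transcripts. The submitters' processing notes name Trim Galore 0.6.6, Salmon 1.9.0 and DESeq2 and the builds mm10 and GRCm38, with no role or order. The index is not given in the sources used here. Estimated counts divide reads among similar transcripts, which bears on Rbpj and its pseudogenes.

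Transcripts were joined by identifier to GENCODE M21 (GRCm38), and 115942 matched. The 1139 without a match held 0.304% of reads and stayed out of the library sizes and tests of genes. They were kept in the library totals given here and in the transcript fit. Counts were summed to 35450 genes and rounded. The design had been written for estimated counts. Groups and sexes came from the labels, and each library of 60969508 to 71670766 estimated reads was 1 mouse and 1 replicate. The biological coefficient of variation was 12.8%.

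The main test was the quasi-likelihood F test of edgeR 4.0.16 (R 4.3.3) with TMM scaling and filterByExpr. Genotype was the single term, adjustment followed Benjamini-Hochberg over all genes or all transcripts, and a call is an adjusted p under 0.05. SEs are the fold change divided by the square root of F, and 95% intervals use Student's distribution with the degrees of freedom of that test. Alternatives used DESeq2 1.42.0, limma 3.58.1 (voom, and trend on log2(TPM + 0.1)), other scaling, offsets, terms and left-out libraries. The script was tested on simulated data. The share of false calls there ran above the nominal rate on average, so calls near the threshold are less secure than their adjusted p-values state, and the criterion for accepting this test was loosened from a single simulated draw to the average of 10 after the single draw had failed. The annotation file was changed once after a first fit had been seen, to another of the same GENCODE release. Words of 31 bases were compared over all quantified transcripts, and the pseudogene was aligned with Biopython 1.88.

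The members and lists were chosen with earlier results of these data known. Besides the members and Cnpy1, the genes named were those of the wider list that were called, the 2 with the highest mean TPM in each role, transcripts with at least 10% of their gene's reads, and the 5 genes most correlated with Rbpj. Other names were chosen after their values had been seen: Rbpj-201, Rbpj-207, the pseudogenes, the genes near Rbpj, those under the filter, the scarce Hes7, Dll3 and Dlk1, list genes with an unadjusted p under 0.05 and the marker genes.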

Additional observations from a re-analysis of the deposited data

How the results depend on the processing

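None of the 9 members tested (Rbpj was not tested) and no gene of the wider list was called under any of the 16 alternatives, where the lowest adjusted p of the 9 was 0.0576, for Notch1. The log2 fold change of Rbpj kept its direction under the same 16, from -1.04 to -0.77, and was -0.43 with its pseudogenes summed in and -0.20 without Rbpj-202, both added after the data were seen. Near-zero members changed sign. Notch2 was -0.00 without scaling factors, -0.05 on TPM and -0.01 without knockout 1. Dll1 was 0.08 in males only, 0.00 with the replicate block, 0.07 with the length offset, 0.01 with limma-voom, 0.00 on TPM, and 0.13, 0.01 and 0.03 without wild type 2, knockout 1 and knockout 2. Jag2 was 0.00 in males only and 0.05 with the offset. Hes1 was 0.00 with the offset and 0.06, 0.01 and 0.01 without wild type 3, knockout 1 and knockout 2.

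The number of genes called was 127, and it was 76 in males only, 403 with the DESeq2 Wald test, 80 on TPM and 69 to 96 with 1 library left out. Marker genes called numbered 4, with 2 without scaling factors and 1 to 3 with 1 library left out. Transcripts called numbered 48, and 1 to 12 with 1 library left out. The replicate numbers are not stated to pair the mice. Deviations of same-numbered libraries correlated at 0.15, -0.09 and 0.23, so pairing was not taken as given. With the replicate block 154 genes and 1 transcript were called, and wild type 2 and knockout 2 did not correlate best with each other. The causes of these shifts were not tested. Left-out and males-only fits also had fewer samples. With 1 library left out, Notch2 ran from -0.01 to 0.09, Dll1 from -0.11 to 0.13, Hes1 from -0.06 to 0.06, Hes5 from 0.15 to 0.54, Dll4 from 0.10 to 0.44, Hey1 from 0.01 to 0.20, Jag1 from 0.12 to 0.27 and Notch1 from 0.22 to 0.40. The block changed no call of the members or of the wider list. Few reads limit Hes5.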
